A study of Mus musculus with 12 samples.

Results

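The 7 genes described here make up part of the GABA system of mouse striatum: Gabra2, Gabra4 and Gabrb1 (subunits of the GABA-A receptor), Gabbr1 and Gabbr2 (the subunits of the GABA-B receptor), and Gad1 and Gad2 (the enzymes that make GABA). They were taken by name from a table of 18208 genes measured by RNA-seq. The same genes held 302 of the 147438 distinct positions, each 100 nt long, at which reads crosslinked to the RNA-binding protein hnRNP H were counted (CLIP-seq). Of the positions that the authors listed as peaks, the 7 genes held 28 of 9903 in the methamphetamine list and 27 of 9537 in the saline list.

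All animals were wild-type C57BL/6J mice, born to heterozygous Hnrnph1 mutant males and C57BL/6J females and aged 50 to 100 days. Each received saline on days 1 and 2 and, on day 3, either saline or methamphetamine at 2 mg/kg, a stimulant that releases dopamine in the striatum. Striata were taken 30 min after that injection. Each library was made from the pooled striata of 4 mice, 2 females and 2 males, which hides differences between animals and between sexes. There were 3 pools per treatment, measured by RNA-seq and by CLIP-seq, so 6 libraries per assay.

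GABA is the main inhibitory transmitter of the forebrain, and most striatal neurons, the projection neurons included, make and release it. GABA-A receptors are chloride channels assembled from several subunits, and the α subunit present sets much of their pharmacology. GABA-B receptors couple to G proteins and need both subunits: Gabbr1 carries the GABA-binding site, and Gabbr2 carries the protein to the surface and engages the G protein. hnRNP H is a splicing regulator that favours runs of G in RNA.

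RNA-seq libraries held between 3935160 and 5091839 reads, as recovered from the deposited values, and CLIP libraries between 423057 (saline replicate 2) and 1635338 (saline replicate 3) peak reads. The libraries fell into the same 2 sets in both assays along the first principal component, which held 65.6% of the variance in RNA-seq and 46.6% in CLIP-seq. Set A held saline replicates 1 and 3 and methamphetamine replicate 2, and set B held the other 3 libraries, so the sets cross treatment. Markers of striatal projection neurons were all detected (12 of 12) and summed to between 7760 and 8510 CPM (read counts scaled to library size) in the libraries of set A and between 6500 and 7220 in those of set B. Markers of cortical excitatory neurons (10 of 10 detected) spanned 181 to 429 CPM in set A, below the 521 to 935 CPM of set B. Choroid plexus markers (7 of 7) reached 4450 CPM in methamphetamine replicate 2, while the other 5 libraries had 63.4 to 204 CPM. The part of these cells in the results below was not tested. In bulk tissue, fewer cells of a type and less RNA per cell cannot be told apart.

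Per kilobase of exon, the order of the 7 RNA levels was Gabbr1, Gad1, Gabbr2, Gad2, Gabra4, Gabrb1 and Gabra2. As log2 CPM per kilobase, Gabbr1 stood at 6.89 ± 0.03 (SD over 6 libraries), above 98.6% of genes. Gad1 stood at 6.21 ± 0.42 and overlapped Gabbr1, exceeded by it in 5 of 6 libraries. Gabbr2 followed at 5.63 ± 0.19, and its range overlapped that of Gad1 although it was lower in all 6 libraries. The ranges of the genes after Gabbr2 did not touch: Gad2 at 5.24 ± 0.14, Gabra4 at 3.40 ± 0.17, Gabrb1 at 1.98 ± 0.48 and Gabra2 at 0.55 ± 0.43, the last above 40.9% of genes.

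None of the 7 genes differed in RNA level between methamphetamine and saline by the limma test at an adjusted p under 0.05. The same was true of all 18208 genes (0.0% called, with a smallest adjusted p of 0.9998), and 1.52% of genes had an unadjusted p under 0.05, none of the 7 among them. Of the 7 genes, 2 had a positive and 5 a negative fitted difference, with a median of −0.08 on the log2 scale against 0.002 over all genes.

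Gabra2, which encodes the α2 subunit found at many inhibitory synapses, had the fewest reads of the 7 genes, 30 to 81 per library. Its levels were 3.40, 4.11 and 3.36 log2 CPM in saline replicates 1 to 3 and 3.57, 2.80 and 3.68 after methamphetamine. Saline replicate 2 was the highest library and methamphetamine replicate 2 the lowest, and the treatments overlapped. The difference was −0.27 ± 0.33 (SE; 95% interval −1.01 to 0.47; limma adjusted p = 0.9998), and it was 0.004 without methamphetamine replicate 2. Gabra4 encodes the α4 subunit, which joins the δ subunit in receptors outside the synapse. It measured 5.94, 6.31 and 5.97 log2 CPM in saline and 6.08, 5.80 and 5.95 after methamphetamine, again with the highest value in saline replicate 2 and the lowest in methamphetamine replicate 2. The difference was −0.13 ± 0.17 (interval −0.52 to 0.25), and it was −0.01 without saline replicate 2, −0.06 without methamphetamine replicate 2 and −0.23 with the library set as a covariate. Gabrb1, the β1 subunit gene, measured 5.57, 6.20 and 5.14 log2 CPM in saline and 5.82, 5.46 and 6.42 after methamphetamine. The treatments overlapped, with a difference of 0.26 ± 0.31 (interval −0.44 to 0.96). It was 0.003 without methamphetamine replicate 3, 0.01 without saline replicate 3, 0.54 without saline replicate 2, 0.48 without methamphetamine replicate 2 and 0.01 with the library set as a covariate.

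Gabbr1 varied least of the 7 genes. Its levels were 9.89, 9.88 and 9.84 log2 CPM in saline and 9.81, 9.82 and 9.82 after methamphetamine. Every methamphetamine library was below every saline library, as in 3.58% of all genes, but the means of 9.87 ± 0.02 and 9.82 ± 0.01 (SD, n = 3) differed by only −0.05 ± 0.17 in the limma fit (interval −0.45 to 0.34). When the values were scaled to library totals, which moved the median of all genes to 0.09, the Gabbr1 difference was 0.03. Gabbr2 measured 8.67, 8.44 and 8.13 log2 CPM in saline and 8.26, 8.28 and 8.47 after methamphetamine. The saline libraries enclosed all 3 methamphetamine values, and the difference was −0.08 ± 0.18 (interval −0.49 to 0.34; 0.01 with scaling to library totals and 0.05 without saline replicate 1). Within a library, Gabbr2 was below Gabbr1 by 1.46 ± 0.25 log2 CPM in saline (mean difference −1.46) and by 1.48 ± 0.11 after methamphetamine (mean difference −1.48), so the balance of the partners differed by −0.02 (exact two-sided permutation test, p = 1.0; 3 pools against 3 cannot go below 0.1).

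Gad1 encodes the form of glutamate decarboxylase that makes GABA throughout the cell, and Gad2 the form tied to nerve terminals. Gad1 measured 8.97, 9.29 and 8.81 log2 CPM in saline and 9.91, 8.79 and 9.06 after methamphetamine. Methamphetamine replicate 1 stood above the other 5 libraries with 4801 reads against 1782 to 2969, and the treatments overlapped. The difference was 0.23 ± 0.29 (interval −0.42 to 0.88), and −0.10 without that library. In the same library Pvalb, a marker of fast-spiking interneurons and of pallidal neurons, was at 7.84 log2 CPM. The range in the others was 3.64 to 5.48, and Pvalb is named here after its values were seen. The 5 markers of thalamic and other subcortical excitatory neurons, all detected, summed to 97.7 CPM in that library and to between 19.5 and 39.8 CPM in the others. Calb2 is among these 5 and also among the 10 interneuron markers, so the sums are not separate. The 10 interneuron markers, Pvalb included and all detected, summed to 760 CPM in methamphetamine replicate 1. They summed to 786 CPM in methamphetamine replicate 3 and to between 413 and 555 CPM elsewhere. So the list as a whole was not highest in the library with the high Gad1 and Pvalb values. The part of these cells in the Gad1 value was not tested. Gad2 did not share the high value: it measured 7.85, 7.92 and 7.83 log2 CPM in saline and 7.82, 7.53 and 7.85 after methamphetamine, a difference of −0.14 ± 0.16 (interval −0.49 to 0.22; −0.03 without methamphetamine replicate 2). The Gad2 level relative to Gad1 was −1.16 ± 0.20 log2 CPM in saline and −1.52 ± 0.49 after methamphetamine, with −2.09 in methamphetamine replicate 1 (exact permutation p = 0.4). Gabra4 relative to Gabra2 was 2.45 ± 0.22 in saline and 2.59 ± 0.37 after methamphetamine (exact permutation p = 0.7). After adjustment over these 3 pairs of genes, each exact permutation p was 1.0.

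**Figure D1:**
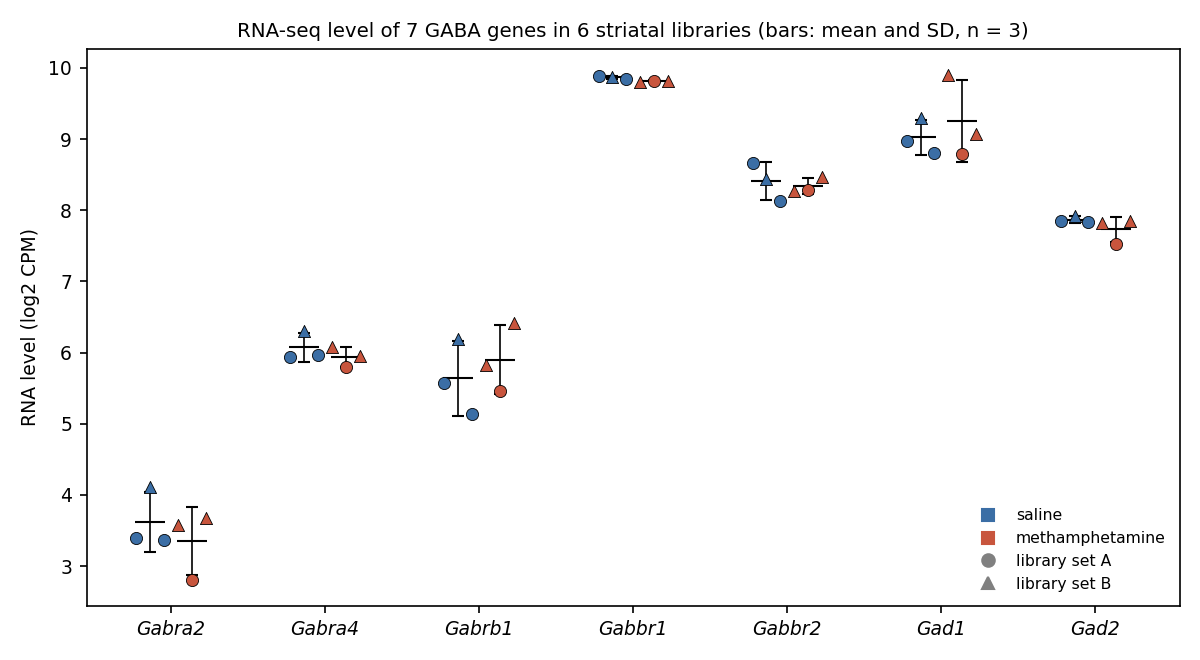
RNA level (log2 CPM) of the 7 genes in each RNA-seq library, coloured by treatment and shaped by library set, with bars for the mean and SD of 3 libraries. Gabbr1 lies within 9.81 to 9.89, Gad1 reaches 9.91 in methamphetamine replicate 1, and the triangles of set B lie above the circles of set A for Gabra2, Gabrb1 and Gad1.

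The library sets were drawn from the RNA values of these same libraries. Separation of a gene by set is therefore partly built in and is no test. Every set B library was above every set A library for Gabra2 (by 0.60 on average), Gabrb1 (by 0.76) and Gad1 (by 0.56), that is 3 of 7 genes against 19.9% of all genes, and no member was lower in every set B library, against 18.9% of all genes. The markers of cortical excitatory neurons, interneurons and astrocytes were also higher in sum in each set B library than in any of set A. So were those of microglia, endothelial cells, and thalamic and other subcortical excitatory neurons, while those of projection neurons were lower. The part of these cells in the 3 genes was not tested. Within set A, with 1 methamphetamine and 2 saline libraries, and within set B, with 2 and 1, the treatment differences use separate libraries. Gabra2 was lower after methamphetamine by similar amounts in both (−0.58 and −0.48), Gabra4 by −0.16 and −0.30, Gad2 by −0.31 and −0.09, Gabbr2 by −0.12 and −0.07, and Gabbr1 by −0.05 and −0.06. Gabrb1 (0.10 and −0.08) and Gad1 (−0.10 and 0.19) differed in sign. So 5 of 7 genes were lower in both sets. Among genes with a mean log2 CPM above 1, so were 17 of 36 other GABA genes (47.2%) and 28.4% of all 13311. With single libraries on one side, these differences carry no test of their own. All genes share those libraries, methamphetamine replicate 2 in set A and saline replicate 2 in set B, so the genes are not independent counts. Over all libraries, scaling to library totals turned the small Gabbr1 and Gabbr2 differences positive (0.03 and 0.01). Between treatments, none of the marker genes below was called: all 12 projection neuron markers had negative differences (median −0.22, and −0.13 and −0.12 within the sets), with sums of 7220 to 8510 CPM in saline and 6500 to 7760 after methamphetamine. All 8 astrocyte markers (median 0.18; 2120 to 3850 CPM in saline and 2320 to 4090 after methamphetamine) and all 7 oligodendrocyte markers (median 0.47; 4560 to 10600 and 7170 to 12500 CPM) had positive ones. Within sets A and B, the medians were 0.02 and 0.12 for astrocytes and 0.07 and 0.56 for oligodendrocytes. All 6 microglia markers also had positive differences (median 0.09, and 0.12 and 0.09 within the sets). Differences were positive for 4 of 5 endothelial, 6 of 10 interneuron and 1 of 5 thalamic and other subcortical markers. Of 10 cortical excitatory neuron markers, 9 had positive and 1 a negative difference (median 0.35, and 0.55 and 0.13 within the sets). Their part in the differences of the 7 genes was not tested. With the library set added to the limma model, Gabra2 differed by −0.53 (limma unadjusted p = 0.028, adjusted p = 0.999). In that fit, 541 of 18208 genes had an unadjusted p under 0.05.

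**Figure D2:**
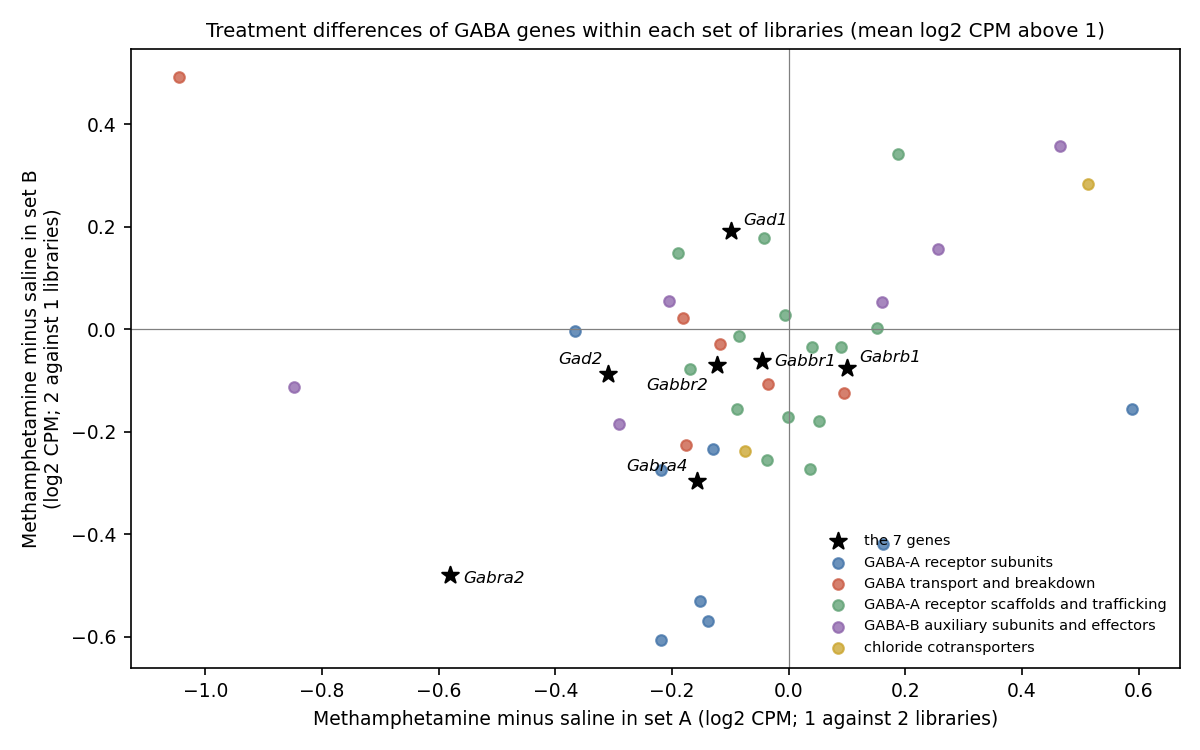
Methamphetamine minus saline (log2 CPM) within set A on the horizontal and within set B on the vertical axis, for the 7 genes (stars) and 36 other GABA genes with a mean log2 CPM above 1 (circles, coloured by list). Gabra2 lies farthest to the lower left of the 7 genes, at −0.58 and −0.48, and 5 of the 7 stars are below 0 on both axes.

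The other genes of the GABA system were examined as 5 lists holding 48 genes, 46 of which were in the table; 22 had a positive and 24 a negative difference, with a median of −0.04. None was called, and 2 (Gabrr3 and Kctd8) had an unadjusted p under 0.05. Of 15 further GABA-A subunit genes measured, 6 had a positive and 9 a negative difference (median −0.13). Gabrr3, with the smallest unadjusted p in that list, had 0 to 3 reads per library. Among 7 genes of GABA transport and breakdown, 4 differences were positive and 3 negative (median 0.03), and Slc32a1, the vesicular GABA transporter, differed by −0.16 ± 0.18. Among 14 genes for scaffolds and trafficking of GABA-A receptors, 7 were positive and 7 negative (median 0.003). Nsf, a fusion ATPase, differed by 0.10 and Plcl1, which binds GABA-A receptor subunits, by 0.31 ± 0.18 (limma unadjusted p = 0.11), with every methamphetamine library above every saline library, as in 2.44% of all genes.

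Kctd8, an auxiliary subunit that shapes GABA-B receptor signalling, had the smallest unadjusted p among 8 GABA-B auxiliary and effector genes. It measured 5.71, 4.90 and 5.45 log2 CPM in saline and 4.74, 4.73 and 4.84 after methamphetamine. The treatments did not overlap, and the difference was −0.58 ± 0.22 (limma unadjusted p = 0.028, adjusted p = 0.9998); it ran from −0.81 to −0.41 when 1 library at a time was left out. Kctd12, a second member of that family and the one with the highest CPM in that list, measured 7.37, 7.05 and 7.15 in saline and 6.85, 6.97 and 6.88 after methamphetamine, likewise without overlap (−0.29 ± 0.15; limma unadjusted p = 0.088). Such an absence of overlap in this direction was found in 3.58% of all genes. In the other direction, Kcnj9, a potassium channel subunit gene named here after its values were seen, was higher in every methamphetamine library (0.21), as were 2.44% of all genes. The list held 4 positive and 4 negative differences, with a median of 0.07. Of the chloride cotransporters that set the direction of GABA currents, Slc12a5 differed by −0.25 ± 0.20 and Slc12a2 by 0.34 ± 0.23.

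Across the 6 RNA-seq libraries, the genes most like each member by Pearson r, among 7852 or 7853 genes with a mean log2 CPM above 4, were Tcp1 (0.9928) and Mlip (0.9898) for Gabra2 and Pithd1 (0.9829) and Lrrc58 (0.9808) for Gabra4. For Gabrb1 they were Synj1 (0.9964) and Tbc1d24 (0.9950), for Gabbr1 Penk (0.9778) and Prkar2b (0.9634), and for Gabbr2 Scn2b (0.9744) and Zmynd19 (0.9656). For Gad1 they were Slc25a4 (0.9907) and Camk2n2 (0.9888), and for Gad2 Bcl6 (0.9628) and Gtf3c5 (0.9561). These coefficients describe 6 libraries that fall into 2 sets.

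The exonic hnRNP H positions with the most reads lay in the 3′ UTR of Gabbr1 (GRCm38 chromosome 17, 37045966 to 37075067, plus strand). The windows below, from GENCODE M21 transcripts of the GRCm38 build, are 30 bases around the longest G-run of each of 5 such positions, shown because they hold most of the gene's exonic CLIP reads; capitals mark runs of 3 or more G.
Gabbr1, chr17:37073067-37073096, plus strand: gtgtGGGGagtGGGtGGGGaactGGGaaga
Gabbr1, chr17:37073467-37073496, plus strand: GGGGactcaccacacacacacacacacaca
Gabbr1, chr17:37074020-37074049, plus strand: atgcgtcccactttGGGtctgtacaatcat
Gabbr1, chr17:37074103-37074132, plus strand: ttttcagaactaaGGGGaaaagaaatGGGG
Gabbr1, chr17:37074235-37074264, plus strand: tgtggtgtctcttGGGGGaaggatctccct
Of the listed Gabbr1 3′ UTR positions not shown, the one at 37048967 to 37049066 holds no run of 3, and the one at 37073767 to 37073866 holds GGG. The coding part of a listed Gabbr2 position, 47 bases of an exon end, also holds no run of 3. The rest of that Gabbr2 position was not read, so the windows do not compare the 2 genes.
Gabbr2, chr4:46677606-46677652, minus strand: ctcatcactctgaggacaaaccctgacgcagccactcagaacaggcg
GGG and GGGG were searched on the transcript strand, and every GGGG also counts as a GGG. The first position, at 37073067 to 37073166, has 7 separate runs of 3 or more G in its 100 bases. Of the listed and counted positions of the 7 genes that lie within 1 exon, all in 3′ UTRs, 5 of 6 held GGG and 3 held GGGG. Among all listed 3′ UTR positions within 1 exon, 75.8% of 1662 held GGG and 44.9% held GGGG. Among counted positions within 1 exon, listed or not, 9 of 10 in Gabbr1, 4 of 10 in Gad1, 6 of 14 in Gad2, 3 of 3 in Gabra4 and 0 of 1 in Gabra2 held GGG. Intronic positions carry most CLIP reads of the other genes and were not read as sequence.

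CLIP reads of the 7 genes did not differ between treatments by edgeR's quasi-likelihood test on reads summed per gene (adjusted p from 0.883 to 0.947). No gene of 8177 tested was called (0.0%), 5.25% had an unadjusted p under 0.05 and 9.59% had treatments that did not overlap. None of the 7 genes was in either group. Levels below are CLIP CPM, scaled to the peak reads of each library. Whether molecular identifiers entered the counts is not given in the sources used here, so intervals cover counting error only.

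Gabra2 (chromosome 5, 70957597 to 71095849, minus strand) had 185, 102 and 210 CPM in saline and 151, 125 and 95.7 after methamphetamine, from 43 to 343 reads at 9 positions. Saline replicates 1 and 3 were highest, and the fitted log2 difference was −0.42 ± 0.38. Gabra4 (chromosome 5, 71569749 to 71658308, minus strand) had 93.0, 26 and 56.3 CPM in saline and 121, 46.9 and 47.0 after methamphetamine, over 41 positions. Methamphetamine replicate 1 was highest and saline replicate 2 lowest, and the difference of 0.29 ± 0.57 was −0.36 without methamphetamine replicate 1 and −0.07 without saline replicate 2. Gabrb1 (chromosome 5, 71658113 to 72149037, plus strand) had 184, 49.6 and 102 CPM in saline and 80.3, 86.7 and 42.0 after methamphetamine at 22 positions. Its difference of −0.69 ± 0.51 was −0.14 without saline replicate 1, −0.45 without methamphetamine replicate 3, −1.05 without saline replicate 2 and −0.31 with the library set as a covariate. The start of Gabrb1 overlaps that of Gabra4 by 196 bases on the other strand, and whether strand was used in counting is not given in the sources used here.

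Gabbr1 carried the most CLIP reads of the 7 genes, with 555, 711 and 775 CPM in saline and 1220, 750 and 571 after methamphetamine at 88 positions. Methamphetamine replicate 1 was highest and saline replicate 1 lowest, and the difference of 0.31 ± 0.38 was −0.08 without methamphetamine replicate 1. Gabbr2 (chromosome 4, 46662305 to 46991873, minus strand) had 266, 149 and 640 CPM in saline and 165, 258 and 359 after methamphetamine at 34 positions. Saline held both extremes, and the difference of −0.41 ± 0.52 was 0.26 without saline replicate 3. The synthesis enzymes had few CLIP reads for their RNA level. Gad1 (chromosome 2, 70553072 to 70602014, plus strand) had 47.5, 59.1 and 61.1 CPM in saline and 137, 43.9 and 53.7 after methamphetamine, from 25 to 125 reads at 59 positions. Gad2 (chromosome 2, 22622205 to 22693874, plus strand) had 45.6, 37.8 and 59.9 CPM in saline and 121, 26.5 and 23.5 after methamphetamine, from 14 to 110 reads at 49 positions. Methamphetamine replicate 1 was the highest library for both enzymes. Their differences, 0.50 ± 0.51 and 0.27 ± 0.65, were −0.22 and −0.96 without it, and the Gad2 difference was −0.11 with the library set as a covariate. Gad1 lies across the antisense gene Gad1os for 10286 bases.

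**Figure D3:**
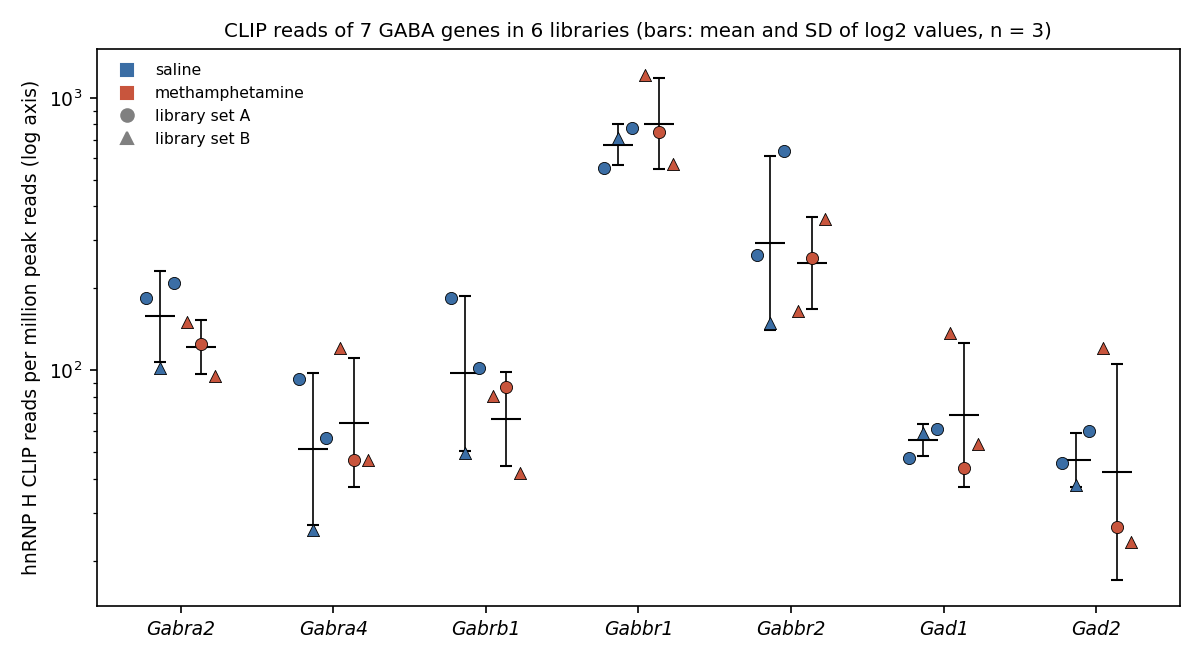
hnRNP H CLIP level (CPM, log axis) of the 7 genes in each CLIP library, coloured by treatment and shaped by library set, with bars for the mean and SD of log2 values of 3 libraries. Gabbr1 has the highest values (555 to 1220 CPM), and methamphetamine replicate 1 is the highest library for Gad1 (137) and Gad2 (121).

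CLIP reads were set against RNA reads as the log2 ratio of CLIP CPM to RNA CPM, each with 1 added, for 10230 genes; the median gene stood at −1.29. RNA reads fall mostly in exons and CLIP positions of these genes mostly in introns, so the ratio is a description of the libraries. Gabra2, the member with the lowest RNA level, had the highest ratio, 4.16, 2.49 and 4.43 in saline and 3.54, 4.13 and 2.79 after methamphetamine, with a mean at the percentile 97.8 of genes. Gabrb1 was at percentile 81.3, with 2.08, −0.56 and 1.72 in saline and 0.47, 1.12 and −1.03 after methamphetamine. Gad1 was the lowest, with −3.23, −3.40 and −2.64 in saline and −2.82, −3.15 and −3.32 after methamphetamine (percentile 16.8). The ratios of Gabra2 and Gad1 did not approach each other in any library. The remaining genes lay between: Gabra4 at a mean of −0.08 ± 0.88 (SD, n = 6), Gabbr2 at −0.22 ± 0.92, Gabbr1 at −0.24 ± 0.42 and Gad2 at −2.22 ± 0.82. Gad2 was at percentile 31.3, and its highest ratio was −0.92 in methamphetamine replicate 1. Ranked within each library, Gad2 spanned percentiles 19.6 to 47.5, so it was below the median gene of every library.

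The ratio of Gabra2 and of Gabrb1 separated the library sets, which were drawn from these same data. Set A libraries lay between 4.13 and 4.43 and set B libraries between 2.49 and 3.54 for Gabra2. For Gabrb1, set A spanned 1.12 to 2.08 and set B −1.03 to 0.47. Set A was above set B without overlap in 16.8% of the 10230 genes and below it in 7.38%. For Gabrb1 the CLIP reads themselves separated the sets, with 86.7 to 184 CPM in set A, above the 42.0 to 80.3 CPM of set B, while its RNA level ran the other way. For the other 5 genes the sets overlapped.

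**Figure D4:**
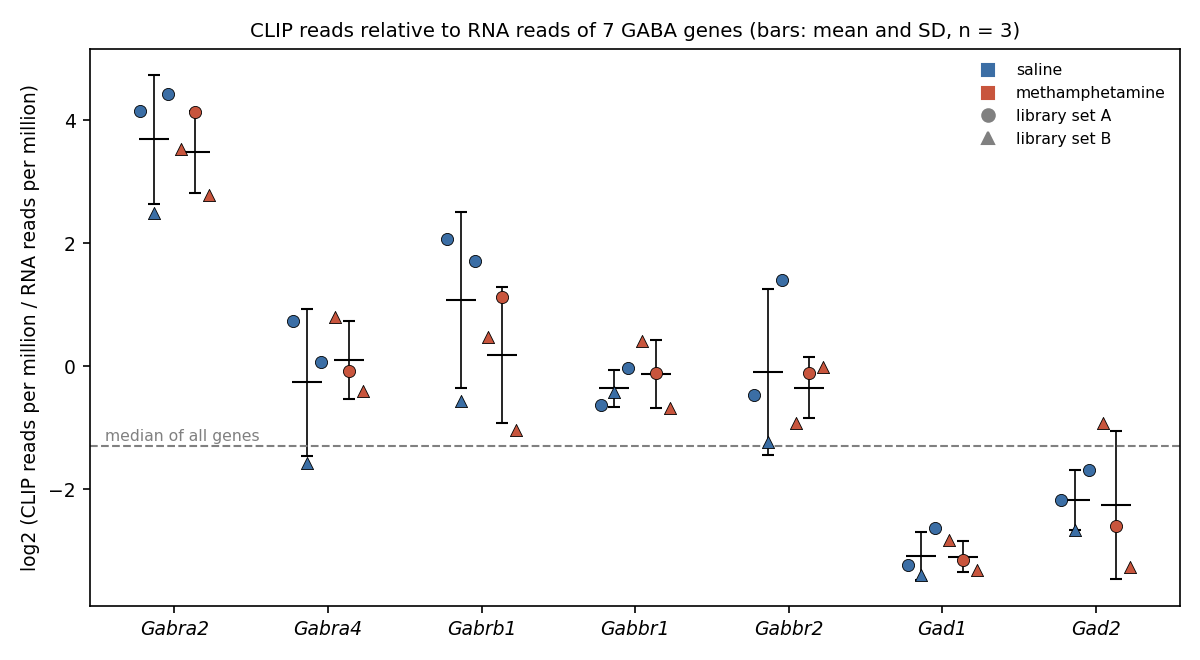
Log2 ratio of CLIP CPM to RNA CPM of the 7 genes in each pool, coloured by treatment and shaped by library set, with bars for the mean and SD of 3 pools and a dashed line at the median of all genes (−1.29). Gabra2 lies above the line in every pool and Gad1 below it; circles of set A lie above the triangles of set B for Gabra2 and Gabrb1.

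Reads of Gabbr1 were concentrated near its end. By GENCODE M21, 9 positions in 3′ UTRs held 55.9% of its reads and 76 intronic positions 42.7%. Those 9 include the positions at 37048967 and 37049067, in the 3′ UTR of another transcript near the gene's start. They held 0.923% and 0.323% of the reads. The 3′ UTR share was 53.3% (Wilson 95% interval 49.3 to 57.3), 64.8% (59.2 to 70.0) and 51.7% (48.9 to 54.4) in saline and 64.0% (61.1 to 66.7), 50.2% (46.6 to 53.8) and 54.1% (48.8 to 59.3) after methamphetamine. The treatments overlapped, and the libraries of set A (50.2% to 53.3%) lay below those of set B (54.1% to 64.8%). A single position, the first window shown above, at 37073067 to 37073166, held 36.3% of the gene's reads, with 234, 90 and 505 reads in saline and 334, 291 and 121 after methamphetamine. It was the highest position of the gene in every library but in neither peak list; the position next to it was in both lists, and its reads were not analysed here. Its log2 difference was 0.49 ± 0.40 (edgeR adjusted p = 0.9998), −0.01 without a filter on low counts and 0.004 without methamphetamine replicate 1.

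Reads of Gabbr2 were all intronic by midpoint, and 64.9% lay at 1 intronic position, 46885106 to 46885205. It had 160, 0 and 843 reads in saline and 4, 143 and 151 after methamphetamine. The 0 in saline replicate 2 allows up to 7.09 CPM at its depth, against 152 and 515 CPM in the other saline libraries. All 3 set A libraries and methamphetamine replicate 3 had 143 reads or more, and the other 2 set B libraries had 4 or fewer. The difference was −0.53 ± 1.54, 0.96 without saline replicate 3 and 1.30 with the library set as a covariate. This position was in neither peak list.

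**Figure D5:**
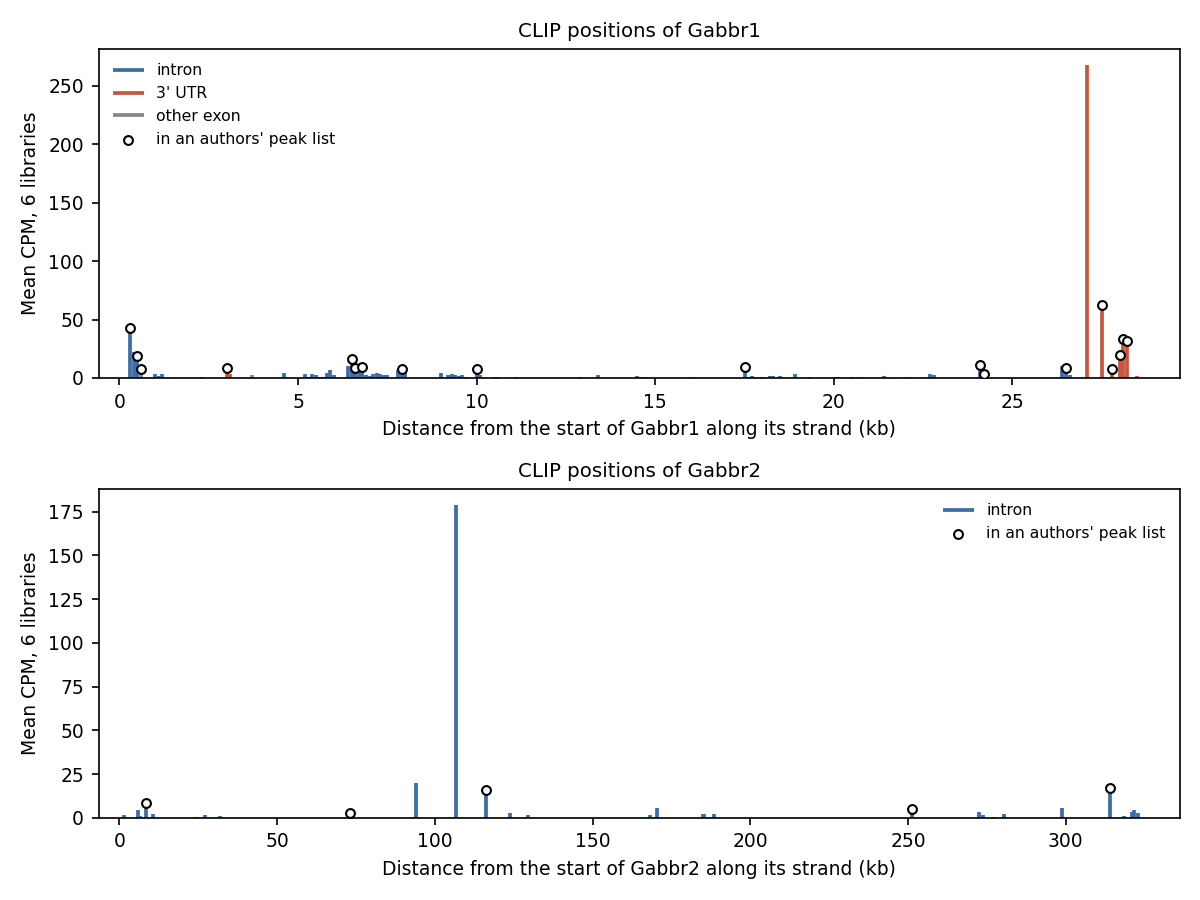
Mean CLIP level (CPM) over 6 libraries at each counted position of Gabbr1 and Gabbr2 against the distance from the gene's start along its strand (kb), coloured by the annotation at the position's midpoint, with open circles for positions in a peak list of the authors. The highest position of each gene, at means of 268 and 179 CPM, has no circle.

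The other 5 genes had mostly intronic reads: 96.7% in Gabra2, 94.0% in Gabra4, 100.0% in Gabrb1, 77.6% in Gad1 and 78.2% in Gad2. In Gad1 and Gad2, 16.8% and 21.2% lay in 3′ UTRs. Of the 302 positions, 22 passed the filter on low counts, from none in Gad1 and Gad2 to 10 in Gabbr1, and none was called, like all 10358 positions tested (0.0%). Over the 22, 13 differences were positive and 9 negative, with a median of 0.17 against 0.05 over all positions tested. An unadjusted p under 0.05 was found at 1 of the 22, and at 3.35% of all. That position lay in an intron of Gabra2, at 71024498 to 71024597, with 4, 4 and 1 reads in saline and 19, 11 and 11 after methamphetamine. It passed the filter on low counts only through its methamphetamine libraries (20.9, 11.2 and 18.5 CPM, against 3.8, 9.45 and 0.611 in saline). The direction of its difference is therefore partly set by the filter, and its p and lack of overlap are no support. All 3 methamphetamine libraries were above all 3 saline libraries, as at 4.33% of the positions tested, and the log2 difference was 2.45 ± 0.95 (edgeR unadjusted p = 0.034, adjusted p = 0.9998). The unadjusted edgeR p was 0.085 with the replicate block, 0.051 with the library set as a covariate and 0.060 without a filter on low counts. Leaving out 1 library at a time, it ran from 0.00935 to 0.132, and the difference was 1.60 without saline replicate 3. The position was 1 of the 4 Gabra2 positions in the methamphetamine list and absent from the saline list. The lists come from the same CLIP libraries, so this adds no separate support.

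The highest Gabra2 position, at 70964698 to 70964797, had 46, 25 and 178 reads in saline and 40, 31 and 19 after methamphetamine and was in both lists (−0.71 ± 0.49). The highest Gabrb1 position, at 72058314 to 72058413, had 55, 2 and 32 reads in saline and 3, 12 and 2 after methamphetamine. Its saline values were split, with 2 of 3 above every methamphetamine library, and the difference was −1.82 ± 0.80 (edgeR unadjusted p = 0.054, adjusted p = 0.9998), −1.20 with the library set as a covariate and −0.88 without saline replicate 1. The highest Gabra4 position, at 71651050 to 71651149, had 45, 5 and 36 reads in saline and 13, 19 and 16 after methamphetamine (−0.13 ± 0.52; 0.37 without saline replicate 1). It was in the methamphetamine list, and the position beside it, at 71650950, in the saline list. The highest positions of the enzymes were thin: 15, 3 and 4 reads in saline and 4, 3 and 4 after methamphetamine for Gad1 at 70596673, and 2, 0 and 4 against 14, 2 and 0 for Gad2 at 22670906.

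The peak lists, 1 for each treatment and without replicates, named mostly the same Gabbr1 and Gabra2 positions. Overlap of at least 1 base on the same strand was found for 17 positions of the 7 genes, 60.7% of the 28 in the methamphetamine list and 63.0% of the 27 in the saline list. Over all genes, the shared part was 48.7% for methamphetamine and 50.0% for saline. Gabbr1 had 19 and 14 positions with 13 shared, Gabra2 had 4 and 4 with 3 shared, and Gabbr2 had 4 and 2 with 1 shared. Gabra4 had 1 in each and none shared. Gabrb1 had 5 positions in the saline list and none in the methamphetamine list, Gad1 had 1 and none, and Gad2 none in either. Most saline reads at those Gabrb1 positions came from replicates 1 and 3, both of set A, and replicate 2 had 0 to 3 at each. Replicate 2 also had the fewest peak reads, and scaled to these it had 0 to 7.09 CPM. At 71976014 its 7.09 CPM was above the 3.06 of replicate 3, and at the other positions it was the lowest saline library. Treatment, library set and depth are therefore mixed in that count. By the regions in the deposited lists, the 7 genes' positions were 67.9% intronic for methamphetamine and 81.5% for saline, against 68.1% and 72.7% of all listed positions. All 3′ UTR positions, 25.0% and 14.8%, were in Gabbr1, against 14.9% and 11.3% of all listed positions.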

How the data were processed

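The members and gene lists were chosen with earlier results of these data known. The authors deposited log2 CPM per gene on the voom scale, per the labels, with an offset of 0.5 reads as the values show; 100% of values gave whole reads (tolerance 0.05). CLIP counts per position were deposited as whole numbers, and repeated lines (172271 in all) were used once per position. The deposited lists give a signal value per peak, a score of unstated scale, and q-values. Trimmomatic, UMI-tools, STAR, Subread, featureCounts, bedtools, limma, edgeR and the build mm10 are named in the submitters' processing notes, without roles; whether UMIs, strand or a filter entered the counts is not given in the sources used here.

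RNA levels were tested with limma 3.58.1 (trend) on all genes; CLIP counts with edgeR 4.0.16 (TMM, filterByExpr, quasi-likelihood), per position and summed per gene, with DESeq2 1.42.0 as an alternative, in R 4.3.3. Benjamini-Hochberg adjustment ran over each whole table, and calls needed an adjusted p under 0.05. Fits were tested on simulated data. Standard errors of edgeR values were derived from the F statistic. Pools are replicates, and p-values measure the spread between pools. Gene lengths, regions and sequences came from GENCODE M21. Named besides the members were, in each list, the genes with the highest level and smallest p, the 2 genes most like each member, and each member's highest position and any with an unadjusted p under 0.05; 1 gene that this rule names is not reported here.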

Additional observations from a re-analysis of the deposited data

How the results depend on the processing

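None of the 7 genes and none of their positions was called under any alternative run. CLIP positions called over the whole table numbered 0 in each alternative but 1: without a filter on low counts there were 414, none of them among the 293 member positions then tested. RNA-seq and CLIP genes called stayed at 0 in every alternative, edgeR on recovered RNA-seq reads and DESeq2 on CLIP counts included. Replicate numbers do not pair the pools (correlations of deviations −0.35, −0.82 and −0.49 in RNA-seq and −0.37, −0.55 and −0.08 in CLIP), and the replicate block left 0 calls; unadjusted p under 0.05 went from 276 to 144 RNA-seq genes, from 347 to 199 CLIP positions and from 429 to 222 CLIP genes, and the Gad2 CLIP difference became −0.16. The same counts ranged over all alternatives from 109 to 958, 199 to 6792 and 222 to 982. Listed positions shared by both lists numbered 17 at 1 or 50 bases of overlap and 5 among positions at or above the median signal. Signs turned, without a call and with the cause not tested, for Gabbr1 (0.0296) and Gabbr2 (0.00786) RNA with library totals, Nsf RNA (−0.0203) and Gad2 CLIP (−0.11) with the library set as a covariate, position 37073067 of Gabbr1 (−0.0129) without a filter, and position 46885106 of Gabbr2 (1.30) with the library set.

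Leaving out 1 library at a time gave RNA differences of −0.44 to 0.00425 (Gabra2), −0.22 to 0.0519 (Gabbr2), −0.10 to 0.46 (Gad1) and −0.0120 to 0.27 (Nsf). CLIP differences ran from −0.36 to 0.78 (Gabra4), −0.0795 to 0.51 (Gabbr1), −0.78 to 0.26 (Gabbr2), −0.22 to 0.78 (Gad1) and −0.96 to 0.62 (Gad2), and at positions from −1.55 to 0.96 (Gabbr2, 46885106) and −0.43 to 0.37 (Gabra4, 71651050). Relative levels ran from −0.15 to 0.10 (Gabbr2 to Gabbr1), −0.0642 to 0.30 (Gabra4 to Gabra2) and −0.52 to −0.08 (Gad2 to Gad1). With 25 to 125 CLIP reads for Gad1 and 14 to 110 for Gad2, no position of the enzymes passed the filter on low counts.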
